A study of Mus musculus with 4 samples.

Results

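The genes described here are 10 genes of the response to low oxygen, chosen by name: Hif1a, Epas1, Egln1, Egln3, Vegfa, Pdk1, Slc16a3, Bnip3, P4ha1 and Ankrd37. They encode subunits of the hypoxia-inducible factor (HIF), its oxygen sensors and HIF targets that are not enzymes of glycolysis. All 10 were found by symbol among the 24391 genes of the count files, and all 10 were among the 16001 genes with enough reads to be tested. RNA sequencing had been done on mouse lung tumours of 2 genotypes, with 2 samples each. The K-Ras group carried K-Ras LSL-G12D, an oncogenic allele kept silent by a floxed stop cassette until Cre removes it. The K-Ras Mll4-/- group carried the same allele together with Mll4 fl/fl, a floxed form of the gene now named Kmt2d, which encodes a histone H3 lysine methyltransferase of enhancers. The source of Cre and the age and number of the mice are not given in the sources used here. Tumours of both groups were digested with collagenase, DNase and trypsin, treated to lyse red blood cells and depleted of CD45-positive leukocytes before RNA extraction. What remained was a mixture of tumour cells and stroma, in which leukocyte and airway cell transcripts were still found.

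HIF is a pair of an alpha and a beta subunit. When oxygen is present, EGLN enzymes hydroxylate prolines of the alpha subunit, the VHL ubiquitin ligase binds the hydroxylated form, and the protein is destroyed. When oxygen is low, the alpha subunit persists, pairs with ARNT and binds short DNA motifs next to genes for glucose use, blood vessel growth, mitochondrial turnover and matrix synthesis. HIF1A, encoded by Hif1a, works in most cell types, whereas HIF2A, encoded by Epas1, is abundant in the endothelium of the lung and also present in its epithelium. Because this control acts on protein, the RNA of Hif1a and Epas1 is not a measure of HIF activity, and no protein or oxygen level was measured in these samples.

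HIF binds a core of 5 bases, either ACGTG or GCGTG. Both were searched on both strands in the 250 bases before each annotated start site in the RefSeq promoter table (GRCm38.p6). The table held 11 windows for 9 of the 10 genes, and Epas1 was the gene with none. ACGTG was present in at least 1 window of 8 genes, and either core in at least 1 window of all 9. By window, 8 of 11 held ACGTG, 6 of 11 held GCGTG and 9 of 11 held either. Among all 32851 windows of the same length in the table, 16.6% held ACGTG, 28.2% held GCGTG and 38.6% held either. The 10 genes were chosen as parts or targets of the HIF pathway. Both cores hold CG, and the windows were not matched for base content, so these shares are not a test. The windows of Slc16a3, Bnip3 and Ankrd37 are shown whole, since Slc16a3 had the smallest p-value of the 10 genes, Bnip3 held the most cores and Ankrd37 held several cores although its RNA levels overlapped between the groups. Sequences read 5′ to 3′ on the strand of the gene and end at the base before the start site, with every core in capitals (CACGT and CACGC are the cores read on the opposite strand, and overlapping cores run together).
Slc16a3 (chr11:120948817-120949066, plus strand): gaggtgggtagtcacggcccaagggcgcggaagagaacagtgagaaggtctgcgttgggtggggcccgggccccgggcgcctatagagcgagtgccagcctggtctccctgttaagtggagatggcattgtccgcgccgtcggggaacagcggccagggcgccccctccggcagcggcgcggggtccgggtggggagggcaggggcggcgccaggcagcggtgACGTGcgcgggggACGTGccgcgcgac
Bnip3 (chr7:138909507-138909756, minus strand): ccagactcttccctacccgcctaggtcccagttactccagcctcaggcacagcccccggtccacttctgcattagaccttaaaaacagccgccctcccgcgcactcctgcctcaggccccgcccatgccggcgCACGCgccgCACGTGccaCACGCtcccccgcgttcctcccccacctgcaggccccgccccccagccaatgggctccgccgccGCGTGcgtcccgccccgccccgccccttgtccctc
Ankrd37 (chr8:45999851-46000100, minus strand): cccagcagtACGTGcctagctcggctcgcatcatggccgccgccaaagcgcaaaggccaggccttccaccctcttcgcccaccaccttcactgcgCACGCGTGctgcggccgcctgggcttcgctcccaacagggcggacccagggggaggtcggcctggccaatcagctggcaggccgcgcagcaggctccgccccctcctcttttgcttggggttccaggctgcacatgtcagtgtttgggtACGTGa
The CACGTG in the Bnip3 window holds ACGTG on both strands, a palindrome that is also the E-box bound by other transcription factors. For a further 5 genes the stretch around the ACGTG core nearest the start site is shown, or for Pdk1, which had no ACGTG, around its GCGTG core. In these stretches the capitals mark that core alone.
Hif1a (chr12:73907784-73907814, plus strand): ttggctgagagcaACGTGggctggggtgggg
Egln1 (chr8:124949305-124949335, minus strand): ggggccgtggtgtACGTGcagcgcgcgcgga
Egln3 (chr12:54204086-54204116, minus strand): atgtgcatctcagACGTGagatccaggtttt
Pdk1 (chr2:71873133-71873163, plus strand): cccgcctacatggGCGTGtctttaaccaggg
P4ha1 (chr10:59323267-59323295, plus strand): gtgtgacagagcgCACGTagcgagggctg
The matched windows of Vegfa and Pdk1 were those of 1 of their 2 annotated starts each. For Vegfa it was the downstream start (window chr17:46025164-46025413, minus strand). The window of its upstream start (chr17:46032378-46032627) held neither core, so Vegfa is counted above through the downstream start only. That matched window lies inside the gene, and its letters around both cores read in 1 frame as VEGFA protein. Both cores of Vegfa thus fall in coding sequence. A match is a description of the letters in the window. Binding of HIF was not measured.

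Across the 10 genes, the targets and sensors of HIF were mostly higher in the K-Ras Mll4-/- samples, and Epas1 was lower. For 7 genes (Egln1, Egln3, Vegfa, Pdk1, Slc16a3, Bnip3 and P4ha1) both K-Ras Mll4-/- samples lay above both K-Ras samples, a pattern found in 29.9% of all tested genes. Only Epas1 had both K-Ras Mll4-/- samples below both K-Ras samples, as did 28.5% of all genes. Hif1a and Ankrd37 overlapped. None of the 10 passed the edgeR quasi-likelihood test at an adjusted p under 0.05, which 6 of the 16001 genes did (0.0375%). At an unadjusted edgeR p under 0.05, 6 of the 10 were higher and 1 was lower, against 11.3% and 10.4% of all genes. DESeq2 called 4 of the 10 higher (Egln3, Pdk1, Slc16a3 and P4ha1) and Epas1 lower, against 5.23% and 5.18% of the 15380 genes to which DESeq2 gave an adjusted p. The edgeR likelihood ratio test called the same 5, and limma-voom called 0. The median log2 fold change was 0.49 over the 10 genes and -0.01 over all tested genes. The shares over all genes given here are also the background for the counts of the lists below. Levels below are CPM, read counts brought to a common library size with the TMM scaling of edgeR, and fold changes are K-Ras Mll4-/- against K-Ras.

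**Figure D1:**
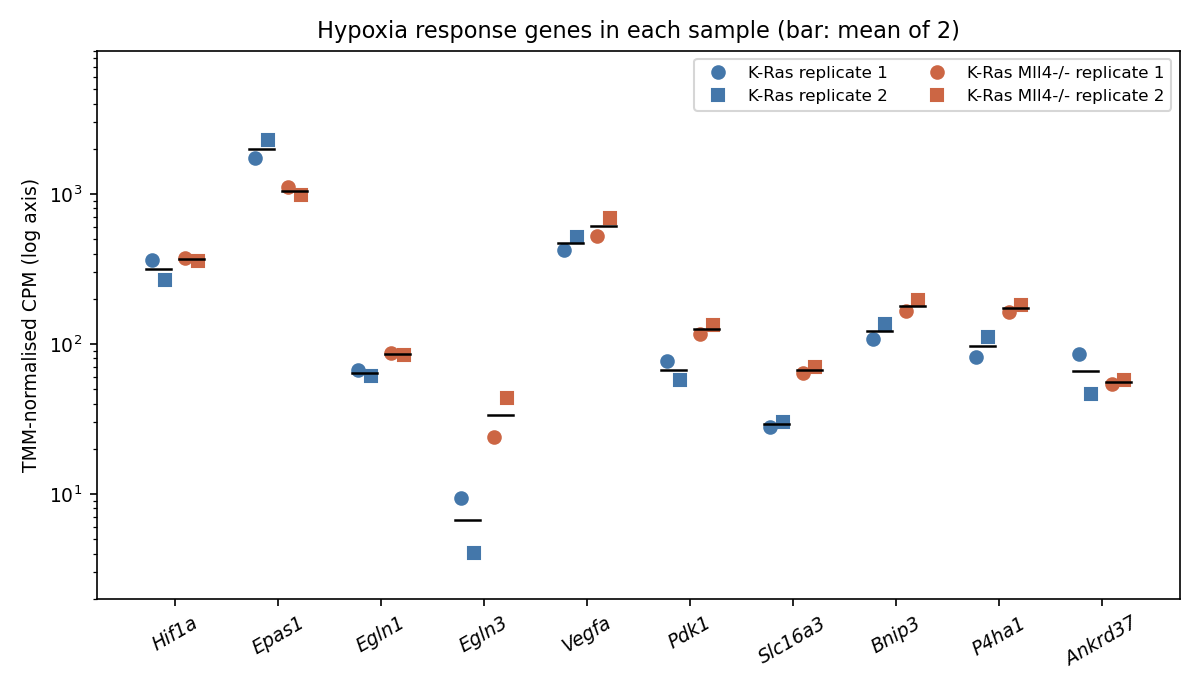
TMM-scaled CPM of the 10 genes in each of the 4 samples on a log axis, with a bar at each group's mean over 2 samples. The groups separate upward for 7 genes, downward for Epas1, and overlap for Hif1a and Ankrd37.

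The samples also differed in depth and cell content. Reads assigned to genes ranged from 26683033 to 36677987 per sample, so 3 reads, taken as the least that shows a transcript, correspond to 0.0818 to 0.112 CPM. Each of the 10 genes had at least 146 reads in every sample. The targeted gene, Kmt2d, was at 367 and 317 CPM in the K-Ras Mll4-/- samples and at 395 and 526 CPM in the K-Ras samples, and was not called (log2 fold change -0.43, edgeR adjusted p = 0.297). Its log2 fold change was -0.06 with offsets for GC content and transcript length. Counts over a whole gene do not show the loss of single exons, so its deletion is taken from the labels. The labels do not say whether the samples of a group came from separate mice, so p-values measure only the spread between these samples, which may be technical. K-Ras replicate 2 stood apart in airway cell transcripts, with a summed level of 5 ciliated cell markers of 572 CPM, against 94.2 CPM in K-Ras replicate 1 and 51.4 and 56.8 CPM in the K-Ras Mll4-/- samples. All 5 were below both K-Ras samples in both K-Ras Mll4-/- samples, as were 28.5% of all tested genes. All 5 had an unadjusted edgeR p under 0.05 (median log2 fold change -2.38), but 0 were called after adjustment, and DESeq2 called 4 lower. The K-Ras Mll4-/- samples were thus below K-Ras replicate 1 as well, though by less. The 4 club cell markers summed to 3442 CPM in K-Ras replicate 2 against 541 to 707 CPM elsewhere. Alveolar type 2 markers, those of the cell from which these tumours mostly arise, were abundant in every sample (21247 to 32778 CPM summed over 7 genes). After depletion, summed leukocyte markers (6 genes) were at 328 and 227 CPM in K-Ras Mll4-/- replicates 1 and 2 and at 439 and 210 CPM in K-Ras replicates 1 and 2. In bulk tissue, fewer cells of a type and less RNA per cell cannot be told apart.

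Of the alpha subunits, Epas1 was lower in both K-Ras Mll4-/- samples and Hif1a overlapped. Epas1 was at 1113 and 976 CPM in the K-Ras Mll4-/- samples and at 1732 and 2277 CPM in the K-Ras samples. Every K-Ras sample was above every K-Ras Mll4-/- sample, and the gap between the groups was wider than the distance between replicates of either. The means were 1044 ± 97.1 and 2004 ± 385 CPM (SD, n = 2 each), and the log2 fold change was -0.94 (SE 0.23, edgeR adjusted p = 0.165, DESeq2 adjusted p = 0.00170). Hif1a was at 375 and 359 CPM in the K-Ras Mll4-/- samples and at 365 and 265 CPM in the K-Ras samples. K-Ras replicate 1 lay between the K-Ras Mll4-/- samples, and only K-Ras replicate 2 was below them. The log2 fold change of Hif1a was 0.22 (95% interval -0.32 to 0.76, edgeR adjusted p = 0.560), and without K-Ras replicate 2 it was -0.0061.

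Epas1 was also the most abundant alpha subunit per length. Expressed as CPM per kilobase of transcript, it held 71.1% and 68.5% of the summed level of Hif1a, Epas1 and Hif3a in the K-Ras Mll4-/- samples against 80.0% and 87.4% in the K-Ras samples. Hif1a held 28.01% and 29.4% against 19.7% and 11.9%, so its share did not overlap between the groups although its CPM did. Hif3a, which encodes a weaker alpha subunit with inhibitory forms, held at most 2.16% in any sample.

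Most of the endothelial markers examined were lower in the K-Ras Mll4-/- samples, as Epas1 was. Of the 9 endothelial markers, 8 had both K-Ras Mll4-/- samples below both K-Ras samples, against 28.5% of all tested genes. At an unadjusted edgeR p under 0.05, 8 were lower, against 10.4% of all genes. The median log2 fold change was -0.83, and 0 were called after adjustment. DESeq2 called 8 of the 9 lower. The remaining marker, Emcn, had a positive log2 fold change (0.19) with overlap. The endothelial VEGF receptor genes Flt1 (-0.15) and Kdr (-0.17), not among the 9 and named after their values were seen, also overlapped. The summed level of the 9 markers was 4098 and 3260 CPM in the K-Ras Mll4-/- samples against 6721 and 6715 CPM in the K-Ras samples. Vwf, which had the lowest log2 fold change of the 9 (-1.20), was the largest part of that sum in every sample. Per 100 reads of the 9 markers, Epas1 had 27.2 and 29.9 reads in the K-Ras Mll4-/- samples against 25.8 and 33.9 in the K-Ras samples. On that scale the K-Ras Mll4-/- values lay between the K-Ras values, so the separation seen in CPM was absent. Per 100 reads of the 7 alveolar type 2 markers, by contrast, Epas1 had 4.002 and 3.54 reads against 8.15 and 6.95, without overlap. Which cells carried the Epas1 RNA was not tested.

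**Figure D2:**
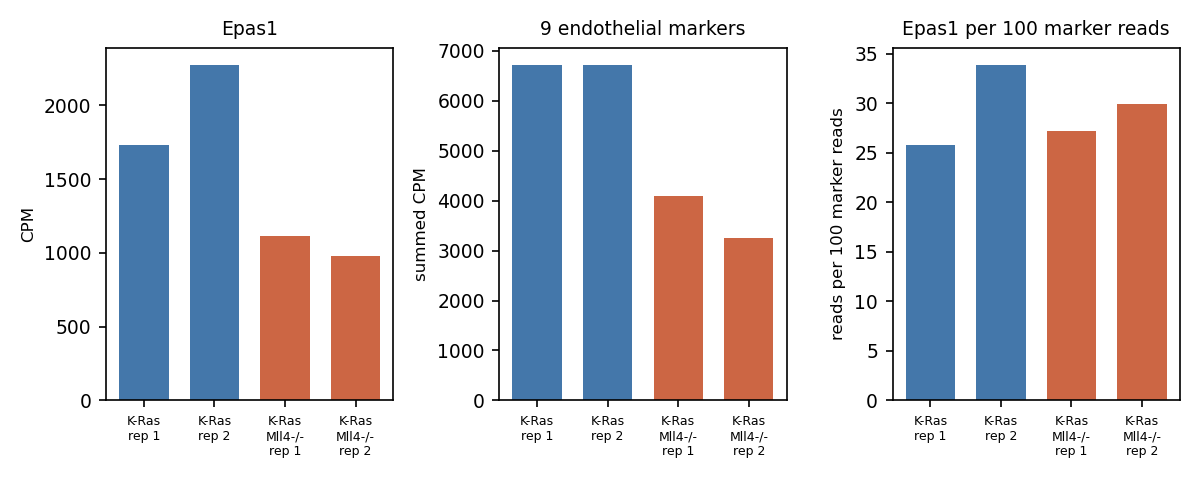
Epas1 in each of the 4 samples beside the summed level of 9 endothelial markers, and Epas1 reads per 100 endothelial marker reads. Both levels are lower in the K-Ras Mll4-/- samples, while the ratio (27.2 and 29.9 against 25.8 and 33.9) overlaps between the groups.

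Egln1 and Egln3, the oxygen sensors among the genes described here, were higher in the K-Ras Mll4-/- samples, Egln3 by far the more. Egln3 encodes PHD3, a prolyl hydroxylase whose own gene is a HIF target, so that it acts as feedback. It was at 24.0 and 43.6 CPM in the K-Ras Mll4-/- samples and at 9.39 and 4.04 CPM in the K-Ras samples, from 629, 1404, 287 and 146 reads. The lower K-Ras Mll4-/- sample was above the higher K-Ras sample, although replicates of each group also lay well apart. The means of 33.8 ± 13.9 and 6.71 ± 3.78 CPM (SD, n = 2 each) correspond to a fitted 5.05-fold difference, or 2.34 on the log2 scale with SE 0.53 (edgeR adjusted p = 0.159, DESeq2 adjusted p = 2.65e-04). With 1 sample left out the log2 fold change ranged from 1.83, without K-Ras Mll4-/- replicate 2 or without K-Ras replicate 2, to 3.07 without K-Ras replicate 1.

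Egln1 encodes PHD2, the main oxygen sensor of most cells, and is itself induced by HIF. Its levels were 86.9 and 84.7 CPM in the K-Ras Mll4-/- samples against 66.9 and 61.2 CPM in the K-Ras samples. The replicates were close to each other in both groups and the groups did not overlap. The difference was modest, with a log2 fold change of 0.42 (95% interval 0.10 to 0.75, edgeR adjusted p = 0.183, DESeq2 adjusted p = 0.183). Egln2, the sensor gene that is not a HIF target, went the other way, at 76.3 and 77.8 CPM against 80.0 and 106 CPM. Its groups did not overlap (log2 fold change -0.27, SE 0.18, edgeR adjusted p = 0.411). The log2 fold change of Egln2 was -0.04 with offsets for GC content and transcript length. With 1 sample left out it ranged from -0.46 to -0.07. Per kilobase, Egln3 made up 12.96% and 21.3% of the summed level of the 3 sensor genes in the K-Ras Mll4-/- samples against 5.87% and 2.20% in the K-Ras samples. Egln2 was the largest part in every sample, at 52.2% and 48.1% against 63.2% and 73.1%.

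The rest of the HIF machinery, 13 genes that include Arnt, Vhl, Hif1an and the coactivators Ep300 and Crebbp, gave mixed differences. Of these, 9 had a positive and 4 a negative log2 fold change, with a median of 0.15. Neither edgeR nor DESeq2 called any after adjustment. At an unadjusted edgeR p under 0.05, 2 were higher and 0 lower, against 11.3% and 10.4% of all genes. The 2 were Cul2 (log2 fold change 0.55, SE 0.13) and Tceb2 (0.46, SE 0.13), scaffold and elongin B subunits of the VHL ubiquitin ligase. The next by p were Cited2, a HIF target that competes with HIF for its coactivators (0.56, SE 0.27), and Tceb1, elongin C (0.42, SE 0.21).

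Vegfa encodes the main growth factor for blood vessels. It was at 523 and 692 CPM in the K-Ras Mll4-/- samples and at 421 and 514 CPM in the K-Ras samples. The groups were separated only by the narrow step from 514 to 523 CPM, less than the distance between replicates of either group. The log2 fold change was 0.38 (95% interval -0.20 to 0.96, edgeR adjusted p = 0.367, DESeq2 adjusted p = 0.423). Its range was 0.16 to 0.57 over the fits that each left out 1 sample. Per 100 reads of the alveolar type 2 markers, Vegfa had 1.88 and 2.51 reads against 1.98 and 1.57, so the groups overlapped.

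The other VEGF ligands and receptors mostly had lower means in the K-Ras Mll4-/- samples. Of 9 genes, 1 had a positive log2 fold change and 8 a negative one, with a median of -0.34. Vegfb, a ligand of VEGFR1, was the positive one, at 14.97 and 17.5 CPM against 11.7 and 10.2 CPM (log2 fold change 0.57, SE 0.19). Vegfc, a lymphatic growth factor, was at 25.4 and 17.4 CPM against 35.4 and 40.98 CPM (-0.84, SE 0.23) and was the only one called by DESeq2 (adjusted p = 0.0424). Flt4, its receptor (-0.61, SE 0.22), and Pgf, placental growth factor (-0.71, SE 0.29), were also below both K-Ras samples in both K-Ras Mll4-/- samples. The receptor genes Flt1 (log2 fold change -0.15) and Kdr (-0.17), named after their values were seen, overlapped between the groups. None of the 9 was called by the edgeR quasi-likelihood test. At an unadjusted edgeR p under 0.05, 1 was higher and 2 were lower, against 11.3% and 10.4% of all genes. Vegfa made up between 81.5% and 89.5% of the summed level of the 5 ligands per kilobase in every sample.

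Both metabolic targets were higher in both K-Ras Mll4-/- samples, Slc16a3 with close replicates. Slc16a3 encodes MCT4, the transporter that exports lactate from glycolytic cells. It was at 63.9 and 70.1 CPM in the K-Ras Mll4-/- samples and at 27.8 and 30.3 CPM in the K-Ras samples. Replicates lay within a few CPM of each other and the groups were far apart. The means were 67.0 ± 4.37 and 29.0 ± 1.77 CPM (SD, n = 2 each), a 2.31-fold difference, and the log2 fold change was 1.21 (SE 0.13). It had the smallest unadjusted p of the 10 genes, 4.18e-04 by edgeR, with an edgeR adjusted p of 0.110 and a DESeq2 adjusted p of 2.11e-06. Leaving out single samples gave 1.13 to 1.28.

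Among the other genes of lactate transport, Slc16a1, which encodes the more widely expressed MCT1, was at 50.7 and 43.3 CPM against 49.2 and 39.96 CPM (log2 fold change 0.08, SE 0.17). Bsg, the chaperone that brings both transporters to the membrane, was at 556 and 621 CPM against 280 and 374 CPM (0.85, SE 0.21, edgeR adjusted p = 0.164, DESeq2 adjusted p = 0.00928). Slc16a8 (0.38, SE 0.40) and Slc16a7 (-0.32, SE 0.45) were at or below 19.1 CPM in every sample. Of these 4 genes, 1 was higher and 0 lower at an unadjusted edgeR p under 0.05, against 11.3% and 10.4% of all genes. Their median log2 fold change was 0.23, and the adjusted test called 0. Per kilobase, Slc16a3 made up 52.8% and 59.2% of the 4 transporters in the K-Ras Mll4-/- samples against 34.3% and 38.4% in the K-Ras samples, where Slc16a1 was the larger part.

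Pdk1 encodes a kinase that switches off pyruvate dehydrogenase and so keeps pyruvate from the mitochondria. It was at 116 and 134 CPM in the K-Ras Mll4-/- samples and at 77.5 and 57.1 CPM in the K-Ras samples. Both K-Ras Mll4-/- samples were well above both K-Ras samples. The means were 125 ± 12.7 and 67.3 ± 14.4 CPM (SD, n = 2 each), and the log2 fold change was 0.89 (SE 0.20, edgeR adjusted p = 0.157, DESeq2 adjusted p = 0.0130). The kinase genes Pdk2, Pdk3 and Pdk4 had log2 fold changes of -0.03, 0.28 and 0.65, and Pdk4 varied from 12.5 to 44.9 CPM with overlapping groups. As a share of the 4 kinases per kilobase, Pdk1 held 40.99% and 49.4% against 42.5% and 28.3%, so its share overlapped between the groups.

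Over the 8 genes of the pyruvate dehydrogenase complex, its other kinases and its phosphatases, 6 had a positive log2 fold change and 2 a negative one. The median was 0.20. At an unadjusted edgeR p under 0.05, 2 were higher and 0 lower, against 11.3% and 10.4% of all genes. Pdha1, the catalytic subunit that the kinases phosphorylate, was at 134 and 162 CPM against 92.5 and 87.3 CPM (0.72, SE 0.15, edgeR adjusted p = 0.153, DESeq2 adjusted p = 0.0181). Dlat, another subunit, had a log2 fold change of 0.40 (SE 0.13), and Pdp2, a phosphatase that switches the enzyme on, one of -0.47 (SE 0.22). None of the 8 was called by the edgeR quasi-likelihood test.

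**Figure D3:**
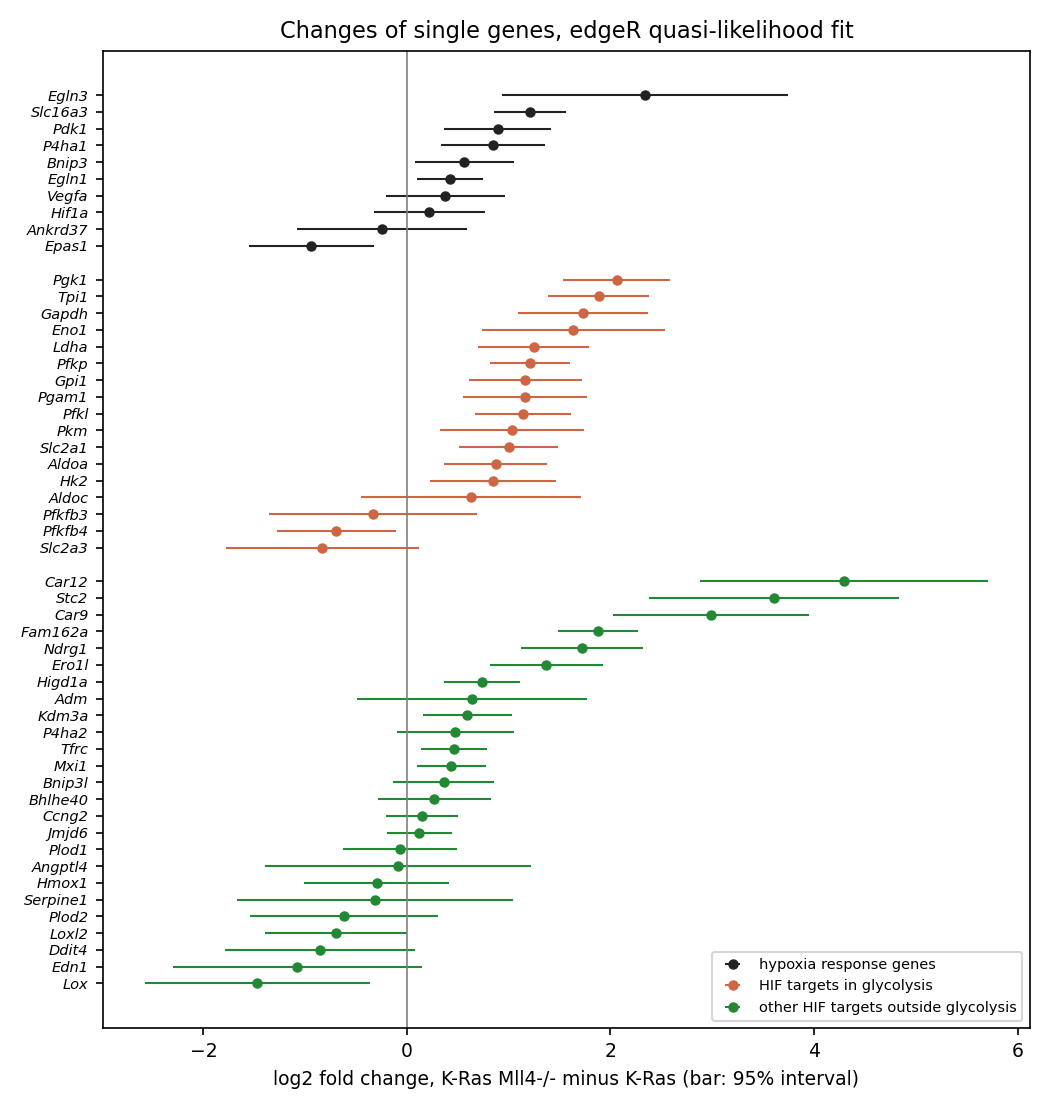
Log2 fold changes (K-Ras Mll4-/- against K-Ras) with 95% intervals from the edgeR quasi-likelihood fit over all 4 samples. The 10 genes come first, followed by the 17 HIF targets of glycolysis and the 25 other HIF targets described below. Among the 10 genes, intervals of Hif1a, Vegfa and Ankrd37 span 0. Egln3 has the largest value of the 10 (2.34), with the widest interval (0.93 to 3.74).

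Bnip3 encodes a mitochondrial protein that marks mitochondria for removal by autophagy. It was at 165 and 195 CPM in the K-Ras Mll4-/- samples and at 107 and 136 CPM in the K-Ras samples. The groups did not overlap, and the step between them was about as large as the distance between replicates. The log2 fold change was 0.56 (SE 0.18, 95% interval 0.08 to 1.05, edgeR adjusted p = 0.200, DESeq2 adjusted p = 0.128). It was 0.39 with offsets for GC content and transcript length. Bnip3l, its paralogue and another HIF target, was at 176 and 188 CPM against 162 and 121 CPM (0.36, SE 0.19). Over 5 mitophagy genes including Bnip3l, 3 had a positive and 2 a negative log2 fold change, from -0.19 for Park2 to 0.36, with 0 at an unadjusted edgeR p under 0.05, 0 called by DESeq2 and Fundc1 (0.28) and Pink1 (0.10) between.

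P4ha1 encodes an alpha subunit of the prolyl 4-hydroxylase that hydroxylates collagen in the endoplasmic reticulum, an enzyme distinct from the EGLN sensors. It was at 164 and 183 CPM in the K-Ras Mll4-/- samples and at 82.3 and 111 CPM in the K-Ras samples. The lower K-Ras Mll4-/- sample was well above the higher K-Ras sample. The means were 173 ± 13.9 and 96.7 ± 20.4 CPM (SD, n = 2 each), and the log2 fold change was 0.84 (SE 0.19, edgeR adjusted p = 0.159, DESeq2 adjusted p = 0.0138). P4hb, the beta subunit, was at 1035 and 1217 CPM against 627 and 689 CPM (0.78, SE 0.19, edgeR adjusted p = 0.164, DESeq2 adjusted p = 0.00494). P4ha2, an alternative alpha subunit, had a log2 fold change of 0.48 (SE 0.22) and P4ha3, at or below 8.27 CPM, one of -0.99 (SE 0.47). Of these 3 genes, 1 was higher and 0 lower at an unadjusted edgeR p under 0.05, against 11.3% and 10.4% of all genes. The adjusted test called 0. The 7 fibroblast markers, which include collagens that this enzyme modifies, had a summed level of 838 and 853 CPM against 2468 and 1124 CPM. Of these, 6 had a negative log2 fold change without overlap, against 28.5% of all genes, and Lum a positive one with overlap. At an unadjusted edgeR p under 0.05, 2 were lower, against 10.4% of all genes.

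Ankrd37 encodes an ankyrin repeat protein and is a HIF target in many cell types. It was at 54.1 and 57.1 CPM in the K-Ras Mll4-/- samples and at 85.4 and 46.5 CPM in the K-Ras samples. The K-Ras replicates lay on either side of the K-Ras Mll4-/- samples, which were close together. The log2 fold change was -0.25 (95% interval -1.08 to 0.59, edgeR adjusted p = 0.672). Without K-Ras replicate 1 it was 0.26, and without K-Ras replicate 2 it was -0.63, so its direction rested on which K-Ras sample was used.

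**Figure D4:**
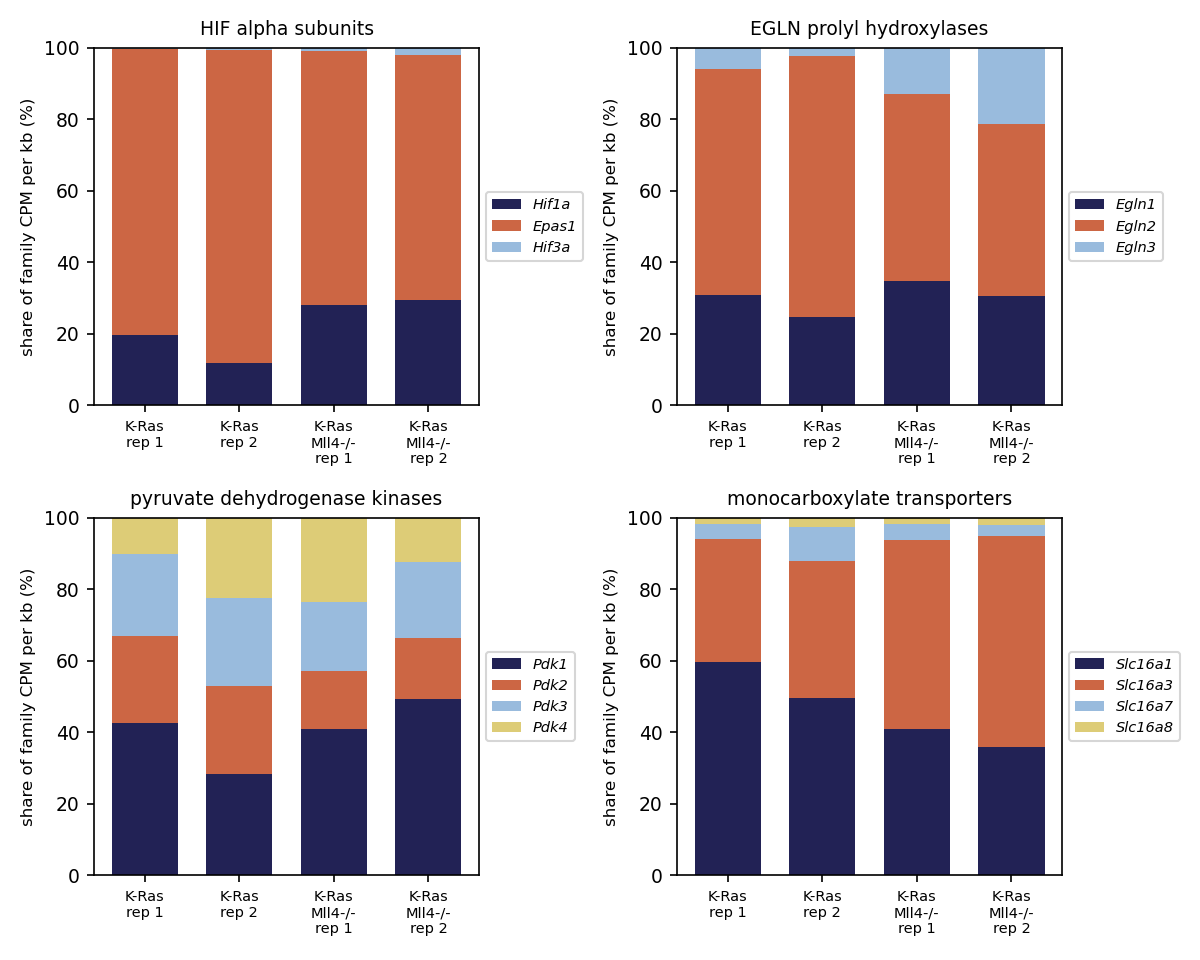
Share of each gene in the summed level per kilobase of its family, in each of the 4 samples, for the HIF alpha subunits, the EGLN sensors, the pyruvate dehydrogenase kinases and the monocarboxylate transporters. Hif1a, Egln3 and Slc16a3 take a larger share in both K-Ras Mll4-/- samples, whereas the share of Pdk1 overlaps.

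The 10 genes were then set beside other HIF targets. A list of 25 further targets outside glycolysis, P4ha2 and Bnip3l included, held 16 genes with a positive and 9 with a negative log2 fold change, with a median of 0.36. In 14 of them both K-Ras Mll4-/- samples were above both K-Ras samples, and in 5 both were below, against 29.9% and 28.5% of all genes. At an unadjusted edgeR p under 0.05, 10 were higher and 1 was lower, against 11.3% and 10.4% of all genes. The edgeR quasi-likelihood test called 0 after adjustment. DESeq2 called 7 higher and 1 lower, against 5.23% and 5.18% of the genes to which it gave an adjusted p. The mean log2(CPM + 0.5) of the 10 genes was 7.21 and 7.39 in the K-Ras Mll4-/- samples against 6.80 and 6.66 in the K-Ras samples, and that of the 25 targets was 5.85 and 5.85 against 5.26 and 5.34.

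The targets with the smallest p among the 25 differed by more than any of the 10 apart from Egln3. Fam162a, which encodes a mitochondrial protein, was at 43.2 and 49.6 CPM against 12.6 and 12.6 CPM, or 1.88 as a log2 fold change (SE 0.15, edgeR adjusted p = 0.0800). Car9, the tumour-associated carbonic anhydrase IX often used as a marker of hypoxia, was at 17.7 and 14.6 CPM against 1.41 and 2.63 CPM (2.99, SE 0.37, edgeR adjusted p = 0.123). Car12, another carbonic anhydrase of the cell surface, was at 12.4 and 15.9 CPM against 1.11 and 0.360 CPM (4.29, SE 0.53, edgeR adjusted p = 0.123). Groups were far apart for all 3 genes. Stc2, a secreted glycoprotein, was at 25.6 and 50.5 CPM against 2.39 and 3.82 CPM (3.61, SE 0.46, edgeR adjusted p = 0.125). The targets below both K-Ras samples were Lox, Loxl2, Plod2, Ddit4 and Edn1, named here after their values were seen. The first 3 encode enzymes that crosslink or modify collagen, and Lox, at 16.5 and 20.5 CPM against 70.4 and 32.3 CPM, was the one DESeq2 called lower (log2 fold change -1.47, DESeq2 adjusted p = 0.00986).

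The 17 HIF targets of glycolysis, which are not among the 10 genes, lay higher as a list. Of these, 14 had a positive and 3 a negative log2 fold change, with a median of 1.14. At an unadjusted edgeR p under 0.05, 13 were higher and 1 lower, against 11.3% and 10.4% of all genes. After adjustment edgeR called 0 and DESeq2 called 13, all higher, against 5.23% called higher by DESeq2 over all genes with an adjusted p. The mean of log2(CPM + 0.5) over these genes was 7.32 and 7.54 in the K-Ras Mll4-/- samples against 6.57 and 6.43 in the K-Ras samples. Slc16a3, at 1.21, was close to the median of this list, and Pdk1 and P4ha1 were below it. The glycolytic genes with the smallest p were Pgk1, phosphoglycerate kinase (log2 fold change 2.06, SE 0.20), Tpi1, triosephosphate isomerase (1.89, SE 0.19), Pfkp, a phosphofructokinase (1.21, SE 0.15), and Gapdh, glyceraldehyde-3-phosphate dehydrogenase (1.73, SE 0.24). In all 4 both K-Ras Mll4-/- samples were above both K-Ras samples. The glycolytic genes with negative values were Slc2a3 (-0.83), Pfkfb4 (-0.70) and Pfkfb3 (-0.33), named after their values were seen. The difference between this list and the 10 genes was not tested, and the lists were picked with earlier results of these samples known.

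Transcripts of other cells, and of genes that tissue dissociation can induce, were set beside the 7 genes that were higher. Per 100 reads of the alveolar type 2 markers, Egln3, Pdk1, Slc16a3, Bnip3 and P4ha1 still had both K-Ras Mll4-/- samples above both K-Ras samples, while Egln1 and Vegfa overlapped. Slc16a3, for one, had 0.230 and 0.255 reads against 0.131 and 0.0924, and Egln3 had 0.0861 and 0.158 against 0.0442 and 0.0123. This scale was itself not fixed between the groups. Sftpb, 1 of its 7 markers, was at 7045 and 10342 CPM against 2871 and 5629 CPM. Sftpa1 was at 3854 and 3404 CPM against 3944 and 5411 CPM, also without overlap, and the other 5 markers overlapped. The 6 alveolar type 1 markers summed to 1460 and 1491 CPM in the K-Ras Mll4-/- samples against 842 and 1149 CPM, with 3 of 6 above both K-Ras samples and Ager below both. Of 4 mesothelial markers, Msln was at 120 and 221 CPM against 13.8 and 17.0 CPM, while Wt1, Upk3b and Lrrn4 were at or below 0.654 CPM in every sample. The 10 immediate-early and heat shock genes that tissue dissociation can induce summed to 1519 and 1248 CPM against 1827 and 2972 CPM. All had negative log2 fold changes, 6 of them without overlap, against 28.5% of all genes. At an unadjusted edgeR p under 0.05, 5 were lower, against 10.4% of all genes. The adjusted edgeR test called 0, and DESeq2 called 5 lower, against 5.18%. Whether dissociation or another inducer accounts for these values was not tested. Summed macrophage markers (5 genes) were at 698 and 264 CPM in K-Ras Mll4-/- replicates 1 and 2 and at 899 and 200.1 CPM in K-Ras replicates 1 and 2, so the sample numbered 1 was the higher in both groups. Summed pericyte and smooth muscle markers (6 genes) were at 153 to 184 CPM against 182 to 251 CPM. The part of these differences in the values of the 10 genes was not tested.

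Without K-Ras replicate 2, the sample rich in airway transcripts, the log2 fold changes of the 7 higher genes were 0.35 for Egln1, 1.83 for Egln3, 0.52 for Vegfa, 0.68 for Pdk1, 1.26 for Slc16a3, 0.73 for Bnip3 and 1.06 for P4ha1. That of Epas1 was -0.74. All 8 kept their direction without that sample. None was called by the edgeR quasi-likelihood test in any fit that left out 1 sample.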

How the data were processed

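RNA of 4 mouse lung tumour samples was sequenced, per the labels' protocols. Each deposited file gives raw read counts, 1 number for each gene symbol. Per the submitters' processing notes, CASAVA 1.4, STAR and HTSeq were used with the mm9 build. The annotation, strand setting and other versions are not given in the sources used here. Without the strand setting, reads of overlapping antisense genes cannot be told apart. Reads with several alignments were tallied apart in the deposited files, and the 5 tally lines were left out. Reads in no gene were 37.7% and 39.2% of uniquely aligned reads in the K-Ras Mll4-/- samples against 43.2% and 42.7% in the K-Ras samples.

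Groups came from the sample titles. Counts were filtered (filterByExpr), scaled by TMM and fitted over all 4 samples with the robust quasi-likelihood test of edgeR 4.0.16 in R 4.3.3, with Benjamini-Hochberg adjustment over 16001 genes and calls at 0.05. The SE is the log2 fold change divided by the square root of F. Alternatives were DESeq2 1.42.0, limma-voom 3.58.1, the likelihood ratio test, other scalings and filters, the replicate number as a block, and each sample left out. The GC and length offsets (mgcv 1.9.3) and the older quasi-likelihood fit were added after seeing the data. Levels per kilobase use the longest GENCODE M21 transcript, found for 24017 of 24391 genes, so they rest on that choice. Promoter windows come from RefSeq (GRCm38.p6), another build than the counts, and were matched by symbol.

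The 10 genes and all lists were chosen with earlier results of these data known. The text names all 10 genes, Kmt2d, and up to 4 genes of each pathway list, those with the smallest unadjusted p. Paralogues whose shares are given, single cell type markers, and genes said to be named after their values were seen come besides. Lists are described by counts and medians, with no test. Intervals and floors cover counting error or replicate spread only. Replicates were kept as separate samples because the titles number them. Their counts differed beyond counting noise (chi-square per gene 48.7 between the K-Ras Mll4-/- and 129 between the K-Ras replicates), which does not show separate mice.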

Additional observations from a re-analysis of the deposited data

How the results depend on the processing

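The number of called genes hung on the test. Against 6 called genes in the edgeR quasi-likelihood test, no count filter gave 10, DESeq2 gave 1601, the likelihood ratio test gave 1503 and limma-voom gave 0 (3228 at an unadjusted p under 0.05). The fits leaving out 1 sample gave 0 to 454, the last (75 higher, 379 lower) without K-Ras replicate 1, and the lone sample is then assumed to vary like the other group. The replicate block gave 255 (229 higher, 26 lower), and with GC and length offsets, added after seeing the data, 410. The labels give same-numbered samples only a number in common. Their deviations correlated at 0.21, and macrophage markers were higher in the sample numbered 1 of both groups. Under the replicate block Slc16a3 was the only 1 of the 10 genes called (edgeR adjusted p = 0.0389, or 0.0244 with the offsets).

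Of 176 alternative values for the 10 genes and Kmt2d, 162 kept their direction and call, 12 became called and 2 reversed, both with 1 sample left out, when Hif1a ranged from -0.0061 (without K-Ras replicate 2) to 0.47 and Ankrd37 from -0.63 to 0.26 (without K-Ras replicate 1). The median of the 10 genes ranged from 0.43 to 0.63 with 1 sample left out. That of the glycolytic targets ranged from 0.92 to 1.22, and that of the 25 other targets from 0.30 to 0.41, and the latter was 0.31 with the offsets and the replicate block together and 0.30 with upper quartile scaling, total count scaling or the offsets.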
